A study of Mus musculus with 7 samples.

Results

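The clustered histone genes are the members of the 4 mouse histone gene clusters, and they were measured here in activated mouse CD8 T cells with and without the kinase Lck. Members were all non-control probes whose gene name begins with Hist1h, Hist2h, Hist3h or Hist4h, which gave 55 of the 55681 probes on the array, for 49 gene names. By type they are 6 probes for the linker histone H1, 15 for H2A, 12 for H2B, 8 for H3 and 14 for H4. Of the 55, 44 were well above background on every array and 49 on at least 3 of the 7 arrays, and these 49 were tested.

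Both groups were OT-1het, Rag-/- CD8 T lymphocytes from lymph node, whose transgenic T cell receptor recognises the ovalbumin peptide SIINFEKL. All were cultured with 100 nM of that peptide for 24 h, and each of the 7 samples is stated to be a biological replicate. The 4 WT samples carry no further allele in the labels. The 3 Lck-/- samples also carried a knocked-in Lck that had been switched off by 7 days without doxycycline in the diet. The labels are silent on the diet of the WT mice, so an effect of diet or of the knocked-in construct, if WT lacked it, and an effect of losing Lck cannot be told apart. RNA of integrity number above 8 was used, and 50 ng of it was labelled with Cy3 and read on a 1-colour Agilent array.

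Most histones are made from small intronless genes that are switched on when a cell copies its DNA. The mRNAs of these replication-dependent genes end in a short stem-loop in place of a poly(A) tail, and the stem-loop binding protein Slbp carries them through processing, translation and decay. Pairs of H2A, H2B, H3 and H4 form the core around which DNA is wrapped, and H1 binds the linker DNA between cores. T cells that have met antigen enter a rapid cycle of division, for which new histones are needed.

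Several members are read by nearly the same letters, which bears on how separate their values are. Probes for 4 H2A genes begin at the same base of their targets, base 333 counted from 0, and differ at 10 of 60 positions, shown here in capitals.
Hist1h2af: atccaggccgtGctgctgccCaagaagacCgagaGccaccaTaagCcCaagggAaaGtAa
Hist1h2ak: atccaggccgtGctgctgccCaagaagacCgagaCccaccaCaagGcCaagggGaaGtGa
Hist1h2an: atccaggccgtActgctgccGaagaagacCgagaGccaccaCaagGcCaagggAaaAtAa
Hist2h2aa2: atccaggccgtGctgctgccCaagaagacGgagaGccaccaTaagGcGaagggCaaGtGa
In all, 12 of the 55 probes share at least 45 equal bases with another member of their type, 6 of them H2A, 2 H3 and 4 H4. Bases were matched without gaps, so this count misses some like pairs. The Hist2h2ac probe, outside it, shares a long unbroken run of bases with that of Hist1h2ah. Signal of transcripts this alike may be shared between their probes, so these values are not separate evidence. For Hist1h2ag the files give a mapping 59681 bases wide, so the position of its probe on mm9 is uncertain.

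Other probes reach the 3' stem-loop itself. It was searched for by its shape, as 6 bases beginning GG, a loop of 4 bases beginning with T, and 6 bases that pair with the first. This shape lies in 16 of the 55681 probes (0.0287%), and 6 histone probes hold it whole and another 2 in part. The hairpin begins at base 7 of 60 in the Hist2h2aa1 probe, and the Hist1h2ae probe starts inside it. Most bases of both probes lie past it. The 6 probes that hold it whole are printed in part, with the hairpin in capitals, to show its letters.
Hist1h3a: ccaaaGGCTCTTTTCAGAGCCaca
Hist1h3g: ttaaaGGCTCTTCTTAGAGCCaccca
Hist1h3i: caaaaGGCTCTTTTCAGAGCCccctc
Hist1h4m: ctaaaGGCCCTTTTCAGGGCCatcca
Hist2h2aa1: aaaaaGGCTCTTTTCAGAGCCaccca
Hist2h2bb: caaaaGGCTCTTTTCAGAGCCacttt
The letters of the hairpin take 3 forms among these genes.

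Values are log2 of the spot signal minus the 75th percentile of the same array, so 0 is that percentile. The share of spots well above background ran from 46.6% to 61.1% over the arrays, and none was saturated. The Lck probe was read first as a check of the labels. It gave 7.44, 7.67, 7.36 and 6.04 on WT 1 to 4 and 8.02, 6.21 and 6.17 on Lck-/- 1 to 3. The array labelled WT 4 read like the lower Lck-/- arrays, and the array labelled Lck-/- 1 was above every WT array, so both went against their labels. The difference, Lck-/- minus WT, was -0.32 ± 0.55 (SE) with an adjusted p of 0.954 by limma. The labels do not say whether this probe lies in the removed part of the gene. Groups are therefore named below by the labels of the arrays.

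Histone signal was lower on the arrays labelled Lck-/- than on those labelled WT for most members, but no member passed the test. Of 29202 probes tested with limma, 0 (0%) had an adjusted p under 0.05, and the smallest adjusted p of a histone probe was 0.638. The difference was negative for 44 of the 49 tested histone probes, where 37.9% of all probes tested were negative. The median histone difference was -0.56, with quartiles of -0.77 and -0.23 and a range of -1.63 to 0.42. Over all probes tested the median was 0.07, with quartiles of -0.08 and 0.26.

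At an unadjusted limma p under 0.05, 22 of the 49 were lower on the Lck-/- arrays, against 1.49% of all probes tested. None of the 49 was higher by that rule, against 5.34% of all probes tested. For 7 members every Lck-/- value was below every WT value, against 1.71% of all probes tested, and for none was every Lck-/- value above, against 5.79%. These counts are descriptions. The members share a family, partly share probe letters, and were read in the same 7 RNA samples, so they are not independent. In RNA from a whole culture, fewer cells in the phase of DNA copying and less histone mRNA in each such cell cannot be told apart.

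**Figure D1:**
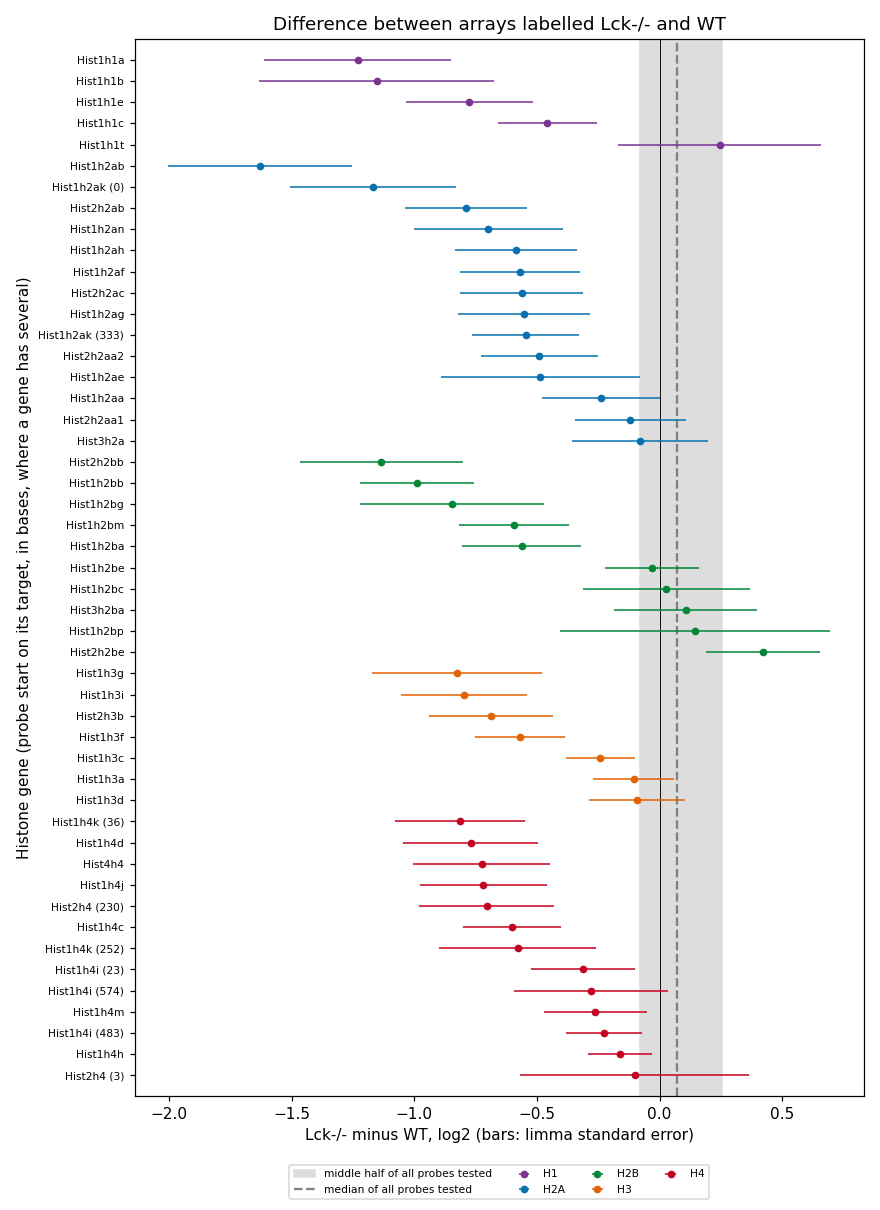
Difference between arrays labelled Lck-/- and WT for each of the 49 tested histone probes, on the log2 scale, with limma standard errors as bars and colours for the 5 types. The grey band and dashed line give the quartiles (-0.08 and 0.26) and the median (0.07) of all probes tested, and 44 of the 49 histone points lie below 0.

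The linker histones held the lowest median of the 5 types, -0.78 over 5 tested probes, of which 4 were negative and 3 had an unadjusted p under 0.05. Hist1h1a, an H1 subtype gene (probe at chr13:23855888-23855947 of mm9), read 1.18, 1.18, 0.90 and 0.06 on WT 1 to 4 and 0.37, -0.80 and -0.77 on Lck-/- 1 to 3. The groups overlapped through WT 4 and Lck-/- 1 alone. Its difference was -1.23 ± 0.38 (SE), with an adjusted p of 0.652 by limma. Without the arrays WT 4 and Lck-/- 1, whose Lck signal went against their labels, it was -1.87 with an adjusted p of 0.0459, and it was the only histone probe past the threshold in that fit.

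Hist1h1b, an H1 subtype gene of proliferating cells (chr13:21871923-21871982), read 5.38, 4.29, 5.30 and 4.15 on the WT arrays and 4.64, 3.27 and 2.96 on the Lck-/- arrays. Hist1h1e (chr13:23713707-23713766) read 5.30, 4.90, 5.17 and 4.70, then 4.77, 3.81 and 4.15. In both genes Lck-/- 2 and Lck-/- 3 were below every WT array, while Lck-/- 1 lay among the WT values. Their differences were -1.15 ± 0.48 and -0.78 ± 0.26 (SE), with adjusted p of 0.725 and 0.665. Hist1h1c differed by -0.46 ± 0.20 (SE), with an adjusted p of 0.725. The testis H1 gene Hist1h1t was the 1 positive member, at 0.25 ± 0.41 (SE), but was well above background on only 1 WT array and 2 Lck-/- arrays. Hist1h1d was not well above background on any array.

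All 14 tested H2A probes were negative, with a median of -0.56, and 6 had an unadjusted p under 0.05. The widest difference of any member was that of Hist1h2ab (chr13:23843392-23843451), whose probe ends inside the stem-loop. It read 6.56, 6.78, 6.71 and 5.89 on the WT arrays and 4.32 and 5.39 on Lck-/- 2 and 3. The spot on Lck-/- 1 was flagged as an outlier and left out, so only 2 Lck-/- values stand behind the difference of -1.63 ± 0.37 (SE) and its adjusted p of 0.638. Every value on the Lck-/- side was below the WT range.

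Hist1h2ak has 2 probes. The probe at the first base of the target (chr13:21845637-21845696) read 7.41, 6.77, 7.06 and 6.22 on WT and 6.30, 5.34 and 5.45 on Lck-/-, a difference of -1.17 ± 0.34 (SE) with an adjusted p of 0.652. The probe at the end of the coding part, printed above, differed by -0.55 ± 0.22 (SE), so the 2 probes of the gene had the same sign and unlike sizes. Hist2h2ab (chr3:96024171-96024230), a gene of the Hist2 cluster, read -1.87, -1.53, -1.71 and -2.19 on WT and -2.30, -3.11 and -2.43 on Lck-/-. Its groups did not overlap, and the difference was -0.79 ± 0.25 (SE) with an adjusted p of 0.652.

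The 4 like-lettered probes printed above had differences of -0.57 for Hist1h2af, -0.55 for Hist1h2ak, -0.70 for Hist1h2an and -0.49 for Hist2h2aa2. On each of them Lck-/- 2 and 3 were below all WT arrays and Lck-/- 1 was above WT 4. For Hist1h2af, for example, the WT values were 9.69, 9.58, 9.49 and 9.06 and the Lck-/- values 9.39, 8.66 and 8.62. The other H2A probes read near the coding end, Hist1h2ah, Hist2h2ac and Hist1h2ag, were at -0.58, -0.56 and -0.55. Hist1h2ae was at -0.49 ± 0.41 and the testis gene Hist1h2aa at -0.24 ± 0.24 (SE), and Hist1h2ac was not well above background on any array. At the other end of the type, Hist2h2aa1 and Hist3h2a differed by -0.12 ± 0.23 and -0.08 ± 0.28 (SE), each with overlapping groups.

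H2B was the most divided type: 6 of its 10 tested probes were negative and 4 positive, with a median of -0.30. Hist2h2bb (chr3:96074056-96074115), whose probe holds the whole hairpin, read 1.89, 2.22, 1.72 and 1.14 on WT and 1.04, -0.04 and 0.83 on Lck-/-. Hist1h2bb (chr13:23838639-23838698) read -2.66, -2.44, -2.70 and -2.88 on WT and -3.13, -3.94 and -3.90 on Lck-/-. Neither gene's groups overlapped. The differences were -1.13 ± 0.33 and -0.99 ± 0.23 (SE), with adjusted p of 0.652 and 0.638. Hist1h2bm (chr13:21814057-21814116) read 4.61, 4.19, 4.45 and 3.96 on WT and 4.09, 3.51 and 3.52 on Lck-/-, and its groups overlapped through Lck-/- 1. That difference was -0.59 ± 0.22 (SE), with an adjusted p of 0.686.

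Hist1h2bg was at -0.85 ± 0.37, the testis gene Hist1h2ba at -0.56 ± 0.24 and Hist1h2be at -0.03 ± 0.19 (SE), each with overlapping groups. The signal of Hist1h2bg was near background, well above it on 3 WT arrays and 1 Lck-/- array. The 4 positive H2B members were Hist2h2be at 0.42 ± 0.23, Hist1h2bp at 0.14 ± 0.55, Hist3h2ba at 0.11 ± 0.29 and Hist1h2bc at 0.03 ± 0.34 (SE), each with overlapping groups. Of these, Hist1h2bp was also near background, well above it on only 2 WT and 2 Lck-/- arrays. Hist1h2bc read -2.46, -2.21, -1.83 and -1.80 on WT and -2.79, -1.35 and -2.01 on Lck-/-, so both the lowest and the highest value came from Lck-/- arrays. The H2B count depends on the scaling of the arrays: 7 of 10 were negative after normexp and quantile normalization, 8 in the deposited value table or after quantile normalization of the same signals, and 9 after centring each array on its median. The H2B median was negative in each of these. Hist1h2bq was not well above background on any array. The pseudogene Hist3h2bb-ps was so on 2 arrays, WT 2 at -0.85 and WT 4 at -2.82, and was not tested.

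All 7 tested H3 probes were negative, with a median of -0.57, and 4 had an unadjusted p under 0.05. Hist1h3f (chr13:23636330-23636389) read 0.35, 0.61, 0.29 and 0.24 on WT and 0.07, -0.51 and -0.15 on Lck-/-. Hist1h3i (chr13:21874784-21874843) read 1.94, 1.45, 1.93 and 1.39 on WT and 1.38, 0.80 and 0.47 on Lck-/-. The groups of both genes did not overlap, though Lck-/- 1 and WT 4 lay next to each other. The differences were -0.57 ± 0.18 and -0.80 ± 0.26 (SE), with adjusted p of 0.654 and 0.660. Hist2h3b (chr3:96072881-96072940) differed by -0.69 ± 0.25 (SE), with an adjusted p of 0.678, with WT values from 3.57 to 4.29 and Lck-/- values from 3.08 to 3.79. Hist1h3g was at -0.82 ± 0.35 and Hist1h3c at -0.24 ± 0.14 (SE), both with overlapping groups. The smallest H3 differences were those of Hist1h3a at -0.11 ± 0.17 and Hist1h3d at -0.09 ± 0.19 (SE). The pseudogene Hist2h3c2-ps was well above background on 1 array and was not tested.

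All 13 tested H4 probes were negative as well, with a median of -0.58, and 6 had an unadjusted p under 0.05. The H4 genes encode the same protein, so their coding parts differ mainly through silent letters. Hist1h4k (chr13:21842279-21842338) read 5.08, 4.55, 4.99 and 4.31 on WT and 4.35, 3.53 and 3.88 on Lck-/-. Hist1h4d (chr13:23673515-23673574) read 7.12, 6.63, 7.12 and 6.44 on WT and 6.57, 5.62 and 5.99 on Lck-/-. Both overlapped only through WT 4 and Lck-/- 1. The differences were -0.81 ± 0.26 and -0.77 ± 0.28 (SE), with adjusted p of 0.661 and 0.673. Hist1h4c (chr13:23790223-23790282) read 2.16, 2.09, 2.11 and 1.68 on WT and 1.73, 1.11 and 1.39 on Lck-/-, a difference of -0.60 ± 0.20 (SE) with an adjusted p of 0.665. Hist1h4h had no overlap between groups and yet a difference of only -0.16 ± 0.13 (SE), since its WT values spanned -2.84 to -2.70 and its Lck-/- values -3.04 to -2.87. Hist1h4j was at -0.72 ± 0.26 and Hist1h4m at -0.26 ± 0.21 (SE). Where a gene had several probes, sizes could differ: Hist2h4 gave -0.70 ± 0.28 and -0.10 ± 0.47, Hist1h4k also gave -0.58 ± 0.32, and the 3 probes of Hist1h4i gave -0.31, -0.28 and -0.23. The probe of Hist1h4i at -0.23 starts at base 483 of its target, and whether it reads this gene alone was not analysed here. One of the probes of Hist4h4 was not well above background on any array, and the other differed by -0.73 ± 0.28 (SE).

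**Figure D2:**
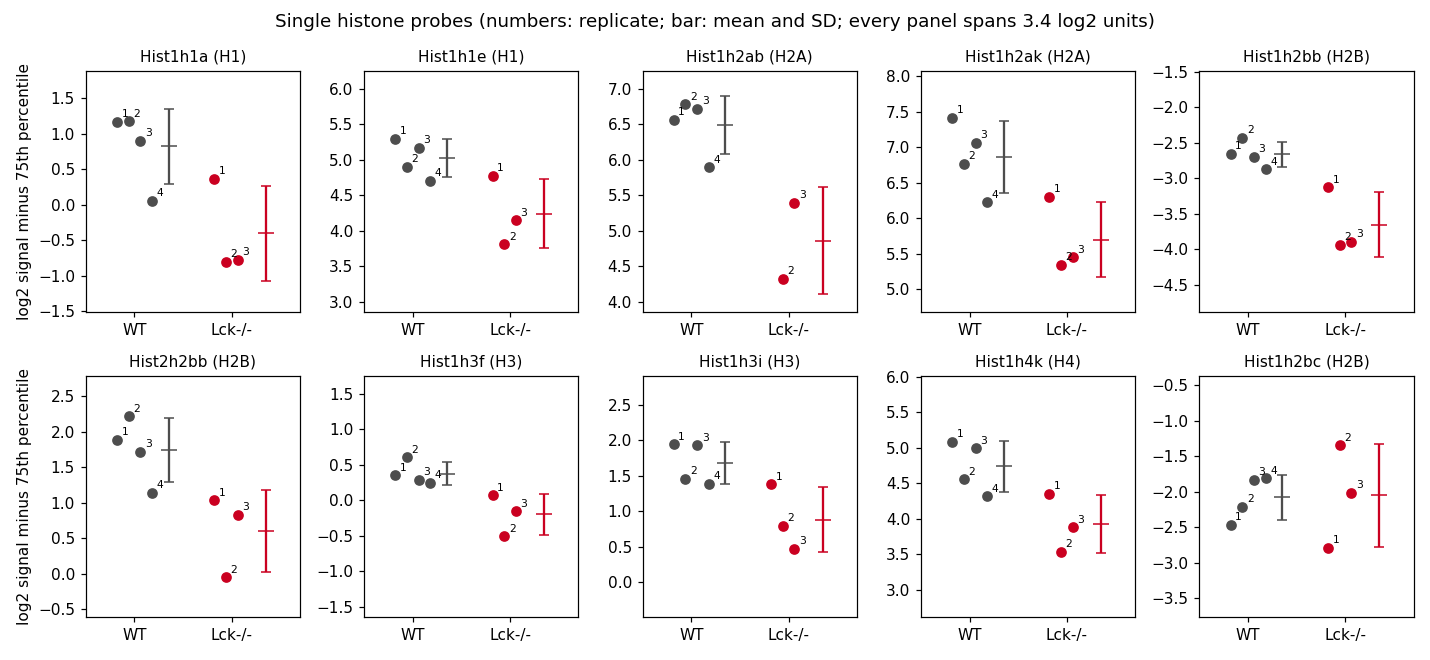
Signal of 10 histone probes on each array, in log2 units relative to the array's 75th percentile, with replicate numbers beside the points and mean and SD as bars. Each panel spans the same number of log2 units, and in 9 panels the points labelled Lck-/- 2 and 3 lie below all WT points, while Hist1h2bc overlaps throughout. Those 9 probes were picked from the smallest p of their types, so this pattern follows from the choice and does not stand for all members.

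The arrays within each group were far from alike in histone signal. Relative to each probe's own WT mean, the median over the 49 histone probes was 0.19, 0.00, 0.12 and -0.34 on WT 1 to 4 and -0.14, -0.79 and -0.77 on Lck-/- 1 to 3. The same median over all probes tested stayed between -0.15 and 0.10 on every array. Lck-/- 1 was thus above WT 4 in histone signal, and these are the arrays whose Lck signal went against their labels. Of the 48 tested members with a value on all 7 arrays, Lck-/- 2 gave the lowest value in 21 and Lck-/- 3 in 18, while WT 1 gave the highest in 19 and WT 3 in 12. WT 4 was the lowest WT array in 34 of the 48, and Lck-/- 1 the highest Lck-/- array in 39.

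Leaving arrays out changed the counts. Without WT 4 and Lck-/- 1, the histone median was -0.90, 30 of 49 were lower at an unadjusted p under 0.05, against 3.51% of all probes tested, and groups did not overlap for 37, where Lck-/- was lower with no overlap for 8.81% of all probes tested. Without Lck-/- 2 alone or without Lck-/- 3 alone, 9 were lower at that level, against 0.97% and 0.507% of all probes tested, and without WT 1 alone or WT 3 alone 11 were, against 0.897% and 1.77%. Leaving out Lck-/- 1 alone gave 30, against 2.95% of all probes tested. Without WT 4 alone the groups did not overlap for 26, against 3.18% of all probes tested, and without Lck-/- 1 alone for 34, against 6.28%. The histone median was negative each time.

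**Figure D3:**
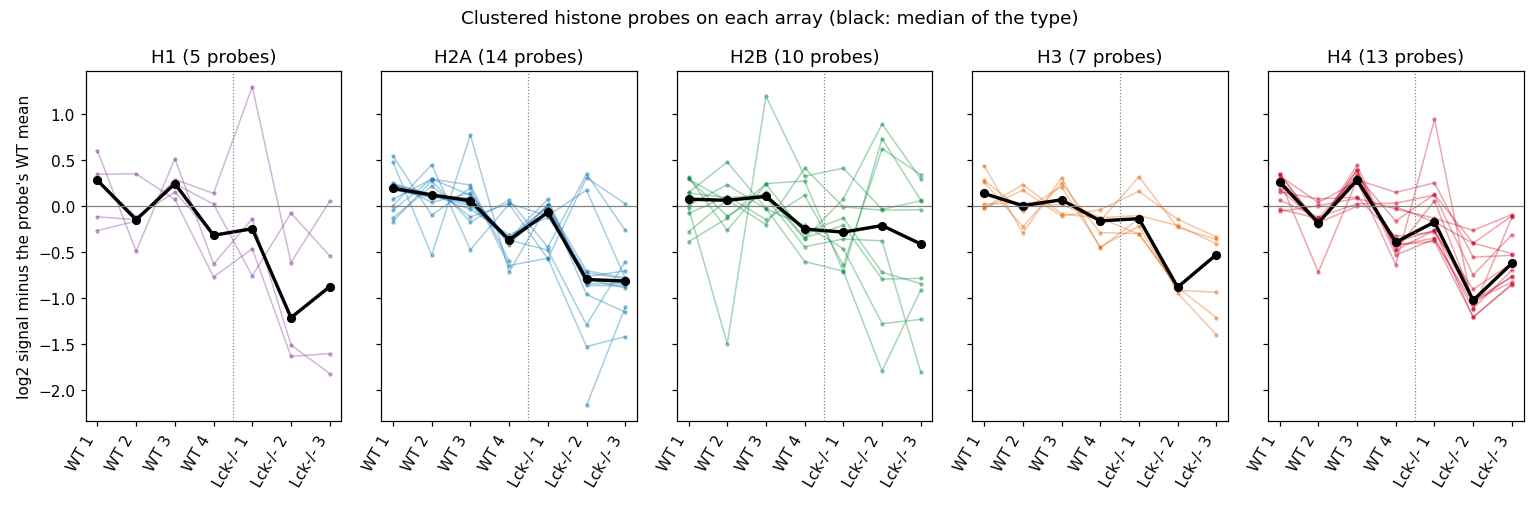
Log2 signal of each tested histone probe minus its mean over the WT arrays, by array and histone type, with the median of each type in black and lines that join values of the same probe (arrays have no order). Lck-/- 2 and 3 lie lowest for H1, H2A, H3 and H4, where Lck-/- 1 lies within the span of the WT medians, and the H2B median is spread between -0.41 and 0.11.

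The Hist1 and Hist2 clusters, on different chromosomes, had like medians. Over 37 tested probes of Hist1 the median difference was -0.57, over 9 of Hist2 it was -0.56, over 2 of Hist3 it was 0.01, and the single tested Hist4 probe was at -0.73. Hist1 itself lies in a pair of stretches of mouse chromosome 13. In the stretch chr13:21814057-22133198 of mm9, 14 of 15 tested probes were negative with a median of -0.58. In the stretch chr13:23622937-24026527, 20 of 22 were negative with a median of -0.56. The probe of Hist1h2ag (-0.55) is counted there by the start of its wide mapping. Its RefSeq promoter, at chr13:22042900-22043199 of GRCm38.p6, lies instead beside that of Hist1h2ah (chr13:22035594-22035893), a gene of the first stretch. The counts and medians of both stretches follow this placing of Hist1h2ag. No test of these groupings was made.

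Differences were also set against the place of the probe on its target, by a grouping made after the values were seen and therefore not tested. Core histone probes that hold the stem-loop, whole or in part, were negative in 8 of 8, with a median of -0.64. Those without it that begin at base 541 or before, the last start at which a stem-loop was found, were negative in 28 of 29, with a median of -0.57. Core histone probes that begin further along, 11 in all and 7 tested, were negative in 4 and positive in 3, with a median of -0.03 and a range of -0.85 to 0.42, and none had an unadjusted p under 0.05. These far probes include 5 of the 10 tested H2B probes, of which Hist2h2be, Hist3h2ba and Hist1h2bc were positive and Hist1h2be was at -0.03. The fifth, Hist1h2bg, was at -0.85, lower than the median of the early probes. It was well above background on 3 WT arrays and on only 1 Lck-/- array, so the size of its difference is uncertain. Most far probes were dim. Hist2h2be, Hist1h2be, Hist1h2bc and Hist3h2ba had WT means of -3.45, -2.18, -2.08 and -1.41, and Hist3h2a 0.51. The far probe of Hist1h4i was at 2.34. Many early probes were brighter, up to 9.61 for Hist1h2ah. Of dim early probes, Hist1h2bb and Hist2h2ab (WT means -2.67 and -1.83) differed by -0.99 and -0.79. Hist1h4h and Hist1h2aa (-2.78 and -1.39) differed by only -0.16 and -0.24. The parts of place and of signal level were not tested. On Lck-/- 1 to 3 the median of the far probes relative to their WT means was -0.36, 0.31 and 0.03, where that of the early probes was -0.13, -0.86 and -0.78. The cut at base 541 comes from an H2A probe, that of Hist1h2ae. Most bases of that probe (-0.49) and of the Hist2h2aa1 probe (-0.12) lie past the hairpin, though both are counted as stem-loop probes. Hist1h3a, whose hairpin begins at base 42 of its probe, was at -0.11. The hairpin lay at base 384 in the H4 gene Hist1h4m and at 472 in the H2B gene Hist2h2bb. A probe of Hist1h4i (start 483, -0.23) and that of Hist1h2bp (start 505, 0.14) begin past those places, so the cut alone makes them early.

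Some replication-dependent histone genes are known also to give longer, polyadenylated transcripts, which a far probe could read. Which transcript each probe detected was not analysed here. The labelling kit is usually primed on poly(A) tails, and the labels do not name the primer. Its part in the histone signal was not tested.

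**Figure D4:**
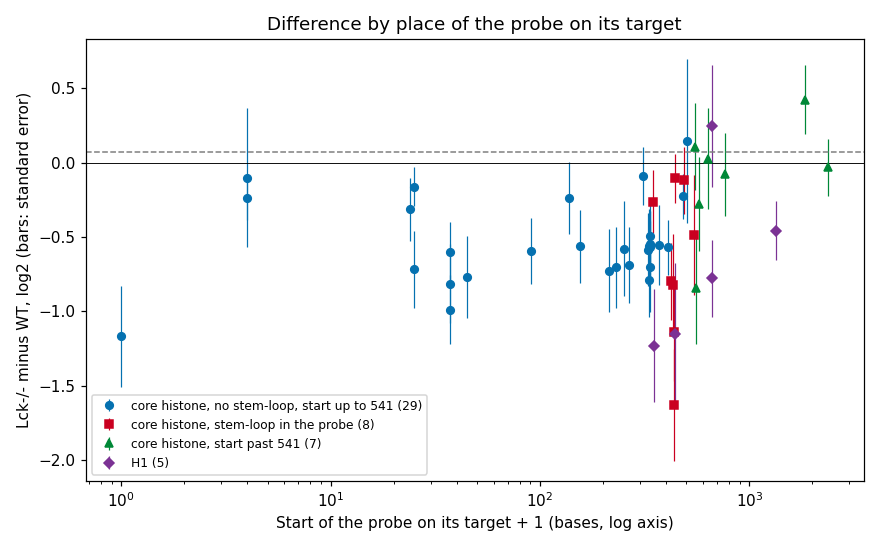
Difference between arrays labelled Lck-/- and WT (log2, with standard errors) against the start of the probe on its target plus 1 base, on a log axis, for the 49 tested histone probes. The dashed line is the median of all probes tested (0.07), and the 7 core histone probes that start past base 541 run from -0.85 to 0.42 with a median of -0.03. Most of these 7 probes were dim, so place and signal level are not separated here.

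The genes' start regions were set beside these values, from RefSeq windows of 300 bases, build GRCm38.p6, that hold each start and lie mostly before it. Of the histone genes, 43 matched, with 44 promoters. Searched on both strands, TATAAA lay in 59.1% of the histone promoters and 13.6% of all 32851 promoters, and CCAAT in 86.4% and 37.4%. CCAAT was in every H1, H2A, H2B and H3 promoter and in 25% of those of H4. The octamer ATTTGCAT lay in 60% of H2B promoters, in 50% of H2A promoters and in none of the other types, against 1.7% of all promoters. The H2A and H2B shares are not separate counts. The windows of Hist1h2ae and Hist1h2bg overlap, as do those of Hist1h2aa and Hist1h2ba, and in each pair the same octamer is counted for both types. GGTCCG, core letters of the element that the H4 factor Hinfp binds, lay in all 8 H4 promoters, in 16.7% of those of H3 and in 8.3% of all promoters.

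Stretches of 60 bases are printed for 2 H2B and 2 H4 genes named above, with the searched letters in capitals, because they show the octamer, found here in H2A and H2B promoters, and the element found in every H4 promoter. Hist1h2bb is read at chr13:23746618-23746677 (plus strand), Hist2h2bb at chr3:96269626-96269685 (plus), Hist1h4d at chr13:23581494-23581553 (plus) and Hist1h4k at chr13:21750554-21750613 (minus), all of GRCm38.p6.
Hist1h2bb: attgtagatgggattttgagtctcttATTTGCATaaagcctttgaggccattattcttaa
Hist2h2bb: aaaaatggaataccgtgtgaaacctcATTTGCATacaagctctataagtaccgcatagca
Hist1h4d: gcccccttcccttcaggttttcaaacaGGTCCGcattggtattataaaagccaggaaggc
Hist1h4k: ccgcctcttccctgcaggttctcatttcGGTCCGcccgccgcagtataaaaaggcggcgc
These 4 genes differed by -0.99, -1.13, -0.77 and -0.81. A match of letters is a description of the sequence and was not related to the signal by any test.

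Genes that make, process and carry histones were then read from lists, 1 probe per gene. The list for histone mRNA transcription, processing and decay had 20 tested genes, of which 12 were negative, with a median of -0.06 and 2 lower at an unadjusted p under 0.05. Of all probes tested, 37.9% were negative and 1.49% were lower at that level, which bears on the lists that follow too. Slbp, the stem-loop binding protein, was at -0.12 ± 0.17 (SE). Pou2f1, which binds the octamer of H2B promoters, read 2.34, 2.66, 2.09 and 2.24 on WT and 1.80, 1.83 and 1.64 on Lck-/-. Its groups did not overlap, and the difference was -0.58 ± 0.17 (SE) with an adjusted p of 0.652. Zfp473, a zinc finger protein of the histone 3' end machinery, was at -0.94 ± 0.37 (SE), with an adjusted p of 0.714. Ncbp2, a subunit of the cap binding complex, was at 0.33 ± 0.16, and Eri1, an exonuclease that trims the histone 3' end, at -0.25 ± 0.15 (SE). No gene of this list passed the test, and neither Npat nor Ccne2 was bright enough to be tested.

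Variant histones, which are made outside the clusters and mostly without a stem-loop, were negative in 7 of 12 tested genes with a median of -0.15. Cenpa, the centromere H3, was at -1.46 ± 0.61, and H2afx, which is phosphorylated at DNA breaks, at -0.55 ± 0.27 (SE). H2afz, a replacement H2A, was at -0.35 ± 0.17 (SE). H2afj, another replacement H2A, was at -0.51 ± 0.28 (SE), but its probe shares 45 bases in an overlap of 50 with the Hist2h2ac probe. Histone chaperones, which escort new histones to DNA, were negative in 14 of 24 with a median of -0.04. Asf1b, a chaperone of proliferating cells, was at -0.54 ± 0.20 (SE) with groups that did not overlap. Chaf1b was at -0.34 ± 0.20, Rbbp4 at -0.23 ± 0.17 and the importin Ipo4 at 0.27 ± 0.17 (SE). No gene of either list passed the test, and the smallest adjusted p was 0.681 among chaperones and 0.725 among variants.

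The DNA replication list was negative in 25 of 32 genes with a median of -0.16, nearer to the median of all probes than the histones were. Rrm2 and Rrm1, subunits of the enzyme that makes deoxynucleotides, were at -0.68 ± 0.21 and -0.46 ± 0.22, and Pola1, the catalytic subunit of polymerase alpha, at -0.42 ± 0.21 (SE). Gins3, of the replicative helicase complex, was at 0.31 ± 0.13 (SE), with every Lck-/- value above WT. The list for G2 and mitosis was negative in 24 of 24, with a median of -1.08 and 18 at an unadjusted p under 0.05. Of all probes tested, 37.9% were negative and 1.49% were lower at that level. The mitosis list members Aurka, Ube2c, Aurkb and Ccna2, genes of cell division, were at -1.25 ± 0.38, -1.76 ± 0.60, -1.35 ± 0.46 and -1.11 ± 0.38 (SE). The Aurkb probe was dim, with a WT mean of -2.57, and well above background on only 2 Lck-/- arrays. In neither list did a gene pass the test, the smallest adjusted p being 0.654 and 0.652.

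On single arrays the replication list had a narrower span than the histones, with medians of 0.22, -0.06, -0.05 and -0.07 on WT 1 to 4 and 0.07, -0.22 and -0.28 on Lck-/- 1 to 3. Like the histones, it was highest on WT 1 and lowest on Lck-/- 2 and 3. The G2 and mitosis list gave 0.79, -0.62, 0.43 and -0.63, then -0.55, -1.30 and -1.40, so WT 2, WT 4 and Lck-/- 1 were near each other. WT 2 stood apart from WT 4 in pooled histone signal (0.00 against -0.34) at nearly the same mitotic median, but the types differed in this. On WT 1 to 4 the H1 medians were 0.28, -0.15, 0.24 and -0.32, and those of H4 0.26, -0.18, 0.29 and -0.39. In both types WT 2 and WT 4 were below WT 1 and WT 3, as in the mitosis list. In H2A, H2B and H3 WT 2 was at 0.12, 0.06 and 0.00.

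Markers of other cells moved across the same arrays. Most probes on the array leaned the same way, as 18123 of all 29202 tested had a positive difference, which bears on the count of each marker list. The CD8 T cell list was well above background throughout in 8 of 9 genes, with a median difference of 0.21. Of its genes 8 were positive and 1 negative, with a lowest difference of -0.14. Those with the smallest p were Thy1 at 0.58 ± 0.18, Cd2 at 0.43 ± 0.22, Cd8b1 at 0.39 ± 0.20 and Cd8a at 0.38 ± 0.26 (SE). All 14 NK cell markers were positive, with a median of 1.06, led by p by Klra7 at 1.78 ± 0.96, Klra8 at 1.56 ± 0.87, Klra4 at 1.63 ± 0.92 and Klrb1a at 1.57 ± 0.92 (SE). Only 5 of the 14 were well above background on every array. None had an unadjusted limma p under 0.05, and the groups overlapped for each. The NK median was -0.71, 0.00, -0.62 and 1.61 on WT 1 to 4 and 0.68, 2.13 and 0.61 on Lck-/- 1 to 3, and the log2 of the summed NK signal ran from 2.67 to 4.07 on WT and 2.58 to 4.53 on Lck-/-.

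All 5 tested B cell markers were positive, with Cd79b at 0.53 ± 0.24, Cd22 at 0.34 ± 0.17, Blnk at 0.51 ± 0.26 and Cr2 at 0.54 ± 0.29 (SE). Ms4a1 was not well above background on any array, and the log2 of the summed B cell signal ran from 0.35 to 1.06 on WT and 1.09 to 1.43 on Lck-/-. Of 11 tested myeloid markers 8 were positive and 3 negative, with a median of 0.21. Those with the smallest p were S100a9 at -2.76 ± 0.81, S100a8 at -2.27 ± 0.81, Cd68 at 0.51 ± 0.15 and Emr1 at 0.71 ± 0.26 (SE). The myeloid sum ran from 3.53 to 4.10 on WT and 3.96 to 4.37 on Lck-/-, and Clec9a and Xcr1 were not above background. No marker passed the test. Array WT 4, lowest of WT in histone signal, and Lck-/- 2, lowest of all, had the highest NK medians, whereas Lck-/- 3 was as low in histone signal as Lck-/- 2 at an NK median of 0.61. The part of other cells in the histone signal was not tested.

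**Figure D5:**
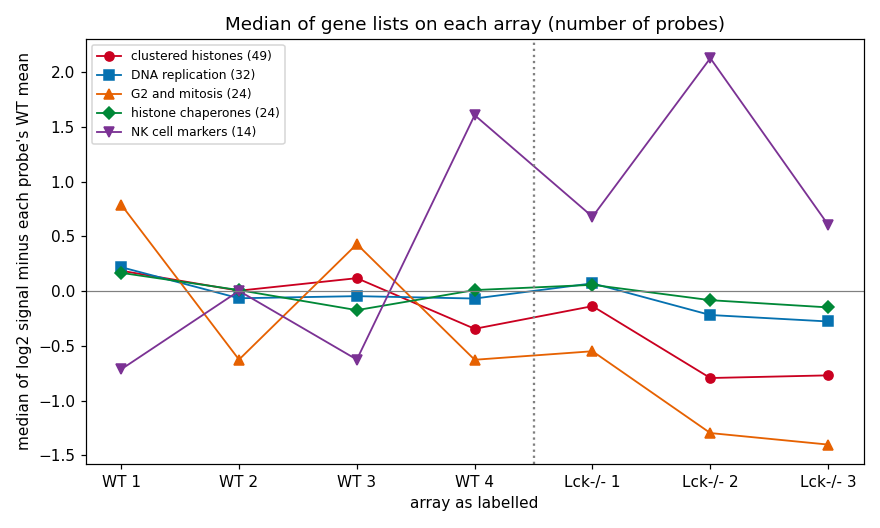
Median of log2 signal minus each probe's WT mean on each array for clustered histones and 4 gene lists, with the number of probes in the key and lines that join medians of the same list (arrays have no order). Histones, replication genes and the G2 and mitosis list are each lowest on Lck-/- 2 and 3, at -0.79 and -0.77 for histones and -0.22 and -0.28 for replication genes.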

How the data were processed

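The scanner files hold spot intensity, deposited by the authors and made with Agilent Feature Extraction 10.7.3.1 per the file headers, already background-subtracted and detrended. A value table deposited by the authors gives log2 values, and its columns correlated at 0.9994 to 0.9998 with the scanner signals; how it was normalized between arrays is not given in the labels or headers, so it served as an alternative only.

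Here, processed signals of non-control spots were put on a log2 scale and set against the 75th percentile of their own array. Outlier-flagged spots were left out and spots of a probe averaged. Of 55681 probes, the 29202 well above background on at least 3 of 7 arrays were fitted with lmFit and eBayes of limma 3.58.1, under R 4.3.3 (no covariate, two-sided, Benjamini-Hochberg adjustment over all 29202, threshold 0.05). Of these probes, 1358 lacked at least 1 value. The procedure was tested on simulated data. The labels call the samples biological replicates, and no culture or animal is named. All arrays lay on 1 slide, so a slide block does not apply. Deviations from the group means were compared between arrays that share a title number (correlations of 0.04, 0.01 and -0.02), so no pairing was assumed.

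Named histones are, within each type, the 3 tested probes with the smallest p and those past the threshold; named list genes are those past the threshold or else up to 4 with the smallest p. Slbp and other histone members named beyond this were chosen after their values were seen. The members and lists were chosen with earlier results of these data known. Each list gene is read by its probe with the highest mean, and 1 list gene is not reported here. The files give probe coordinates on mm9, and which exon or untranslated region a probe lies in was not analysed here. Promoter sequences are RefSeq's, of GRCm38.p6, and are not on the coordinates of the probes.

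Alternatives were median centring, quantile normalization alone or after normexp (offset 50), the deposited values, all probes or those well above background on all 7 arrays, 1 probe per gene, the title number as a block, leaving out each array, and leaving out WT 4 and Lck-/- 1 together, since their Lck signal went against the labels.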

Additional observations from a re-analysis of the deposited data

Results flagged for a closer look

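Values were flagged by Dixon's criterion, under which about 1 in 20 groups of 4 is flagged by chance. For Hist1h4c, WT 4 read 1.68, where the other WT arrays lay between 2.09 and 2.16. For the H2B median relative to WT means, WT 4 was at -0.25, where the other WT arrays lay between 0.06 and 0.11. Both flags fall on the array labelled WT 4, whose Lck signal also went against its label.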

How the results depend on the processing

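With 7 arrays, precision is limited by their number. The count of probes past the threshold was 0 under every alternative except 2: without both WT 4 and Lck-/- 1 it was 47 (29 higher and 18 lower, with 1 histone probe, Hist1h1a, at -1.87), and over fits that left out 1 array it ranged from 0 to 7, the 7 coming without WT 1 and holding no histone probe. The median difference of all histones was negative in every fit run. Without that pair of arrays it was -0.90, and that of H2A was -0.96. The H2B median was -0.15 after normexp and quantile normalization, -0.15 in the deposited table and -0.50 after median centring, a scaling that moved the median of all probes tested from 0.07 to -0.13. Leaving out 1 array at a time gave ranges of -0.78 to -0.42 for all histones, -1.04 to -0.65 for H1, -0.83 to -0.41 for H2A, -0.49 to -0.20 for H2B, -0.70 to -0.41 for H3 and -0.76 to -0.36 for H4. At an unadjusted p under 0.05, 17 to 31 histone probes were lower over the other settings, 31 of them under median centring (3.86% of all probes tested) and 17 with no filter (1.55%), where 55 were fitted. Groups of histone probes did not overlap for 30 under median centring, 17 after normexp and 16 after quantile normalization, against 7 as reported. The shares of all probes tested that were lower with no overlap were 4.82%, 2.61% and 2.71%, against 1.71%. The 15 histone probes named with their tests kept their sign and, Hist1h1a aside, their side of the threshold in each fit that held them. With the title number as a block, which is not taken as a pairing and leaves WT 4 without a partner, 0 probes passed, the histone median was -0.68 and 29 histone probes were lower at that level, against 2.59% of all probes tested.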

Other observations

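Further probes described as clustered histones carry an Ensembl transcript name in place of a gene symbol and so are not members. The probe described as H2ao differed by -0.60, that described as H4d by -0.58, and that described as H2bb of the Hist2 cluster by 0.26, each Lck-/- minus WT on the log2 scale and with overlapping groups. The last opposes in sign the Hist2h2bb probe that holds the stem-loop. Which transcript each of these probes detected was not analysed here.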
